A study of Mus musculus with 16 samples.

Results

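The data described here are RNA profiles of cells sorted for a reporter of Nrl, a gene of rod photoreceptors, from retinal organoids of mouse embryonic stem cells (ESC). They compare organoids late in culture (1 library each at days 25, 28 and 35) with organoids at day 18 (3 libraries), so 6 of the 16 libraries of the series carry the comparison. The members were chosen by source and day, as the labels give them. The 3 ESC libraries of day 21 are shown as the step between, and 7 libraries from induced pluripotent stem cells (iPSC) enter a test of the difference between the 2 sources, the comparison of library profiles and 1 alternative fit. Each library holds polyadenylated RNA of cells that were sorted for green fluorescence from retinal organoids with the Nrlp-GFP genotype, in which GFP marks cells that use the Nrl promoter. Some of these libraries also had high levels of genes of dividing cells or of glia, described below, so their cells are not all established as rods.

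All groups share that transgene, the sort and the culture scheme. ESC clones came from the inner cell mass of blastocysts of Nrl-GFP transgenic mice and were used at passages 15 to 25 in a modified SFEBq protocol, a way of growing neural tissue from floating stem cell aggregates. Hypoxic culture came before day 18, and retinoic acid was given until day 26, when the whole medium was replaced. Days 18, 21 and 25 therefore lie within the retinoic acid period and days 28 and 35 after it, so age and medium cannot be told apart between them. The labels do not say whether replicate libraries came from separate clones or cultures, and the p-values below measure only the spread between these libraries. The late group pools 3 ages with 1 library each, so differences between days 25, 28 and 35 have no replicate check.

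Rods are the retinal cells that detect dim light. In a rod's outer segment, a stack of membrane discs carried on a modified cilium, a light-activated receptor acts on the G protein transducin, which switches on a phosphodiesterase that breaks down cyclic GMP and so closes a cyclic nucleotide-gated channel. Nrl, a leucine zipper factor, and Nr2e3, a nuclear receptor, direct photoreceptor precursors to the rod fate and hold back cone genes, and the homeobox factors Otx2 and Crx act in rods and cones alike. In the mouse retina, rods are born around birth and build their outer segments over the weeks that follow.

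Promoter sequences are given first for 4 photoreceptor genes described below with some of the largest differences, of which Cngb1, Rdh8 and Rdh12 were called and Pde6b was not. They show the letters upstream of genes whose levels moved together. Each is the 250 bases before the annotated start, 5′ to 3′ on the gene's strand, from RefSeq on GRCm38.p6, at chr8:95306586-95306835 (minus strand), chr9:20818244-20818493 (plus), chr5:108388123-108388372 (plus) and chr12:79208663-79208912 (plus). Capitals mark the core letters TAATCC, which Crx and Otx2 bind, or TGCTGA, the first letters of the element that Nrl binds. Both strands were searched.
Cngb1: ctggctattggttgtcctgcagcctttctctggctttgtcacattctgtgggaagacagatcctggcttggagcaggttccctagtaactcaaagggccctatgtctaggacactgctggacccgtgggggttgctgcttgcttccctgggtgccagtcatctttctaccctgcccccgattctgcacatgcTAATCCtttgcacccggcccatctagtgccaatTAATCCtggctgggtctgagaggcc
Rdh8: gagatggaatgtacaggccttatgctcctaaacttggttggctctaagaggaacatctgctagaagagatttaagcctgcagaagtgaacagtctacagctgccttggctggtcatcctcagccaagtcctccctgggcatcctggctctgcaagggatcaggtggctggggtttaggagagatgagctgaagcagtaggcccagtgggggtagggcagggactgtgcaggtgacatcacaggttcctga
Pde6b: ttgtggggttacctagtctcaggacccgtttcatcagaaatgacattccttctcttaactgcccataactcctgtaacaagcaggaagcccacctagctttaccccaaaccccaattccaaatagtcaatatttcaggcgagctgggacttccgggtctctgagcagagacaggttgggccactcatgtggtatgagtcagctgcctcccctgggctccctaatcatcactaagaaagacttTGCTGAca
Rdh12: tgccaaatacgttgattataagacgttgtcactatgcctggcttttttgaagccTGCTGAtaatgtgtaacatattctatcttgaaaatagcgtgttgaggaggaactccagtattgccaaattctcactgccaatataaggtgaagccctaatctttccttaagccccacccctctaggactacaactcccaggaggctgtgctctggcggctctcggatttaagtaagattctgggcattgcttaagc

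The Cngb1 promoter held TAATCC at 58 and 25 bases before the start. TGCTGA stood 8 bases before the start of Pde6b and 196 bases before that of Rdh12, and the Rdh8 window held neither run of letters. Among all 32851 windows of this length in the table, 6.25% held TAATCC and 16.1% held TGCTGA. Of the 73 genes called higher late, 60 matched the table with 80 windows, of which 8 (10.0%) held TAATCC and 17 (21.2%) held TGCTGA. For all genes tested, 5.18% and 13.1% of 14065 windows did. A match to such short runs is a description of the letters and not of a bound site.

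Between 2765034 and 8902411 estimated counts were held per ESC library in the deposited transcript table, and 1 estimated count was worth 0.0543 to 0.157 CPM, the library-scaled count as the authors computed it and the unit of level used below. Over the genes held, the CPM values summed to 642418 to 692625 at day 18, 709446 to 885155 at day 21 and 720169 to 833581 late, so the libraries were not scaled to a common sum of these genes. CPM rescaled to such a sum was one of the alternatives. Principal components of the 9 ESC libraries did not follow age alone: on the first (42.2% of the variance) days 25 and 28 lay at 70.5 and 25.2, the day 18 libraries between -65.3 and -22.0, and day 35 at -47.1. Day 35 stood apart on the second component (23.9%), at -79.9. One ESC library stands apart from the other 8 in its Y-linked genes. The library labelled ESC day 18 replicate 1 had the Y-linked genes Ddx3y at 0.241, Eif2s3y at 0.703 and Uty at 1.84 CPM, while in the other 8 ESC libraries the lowest values were 15.0, 36.0 and 14.7 CPM. Kdm5d, also Y-linked, was at 4.70 CPM there and at 5.80 or above in the others. The 7 iPSC libraries were not uniform either: these 4 genes summed to 144.0 CPM in iPSC day 18 replicate 2 and 43.1 CPM in iPSC day 25 replicate 1, and to 9.60 to 15.1 CPM in the other 5. Whether a label is wrong or the clones differ was not tested. The profile of ESC day 18 replicate 1 was closest to that of iPSC day 18 replicate 1, with a Pearson correlation across genes of 0.992, the highest of all library pairs. Such closeness was not particular to this library. ESC day 21 replicate 2 was closest to iPSC day 21 replicate 1 (0.984) and ESC day 28 to iPSC day 18 replicate 2 (0.962). Others, such as ESC day 25 (0.974 with ESC day 21 replicate 3), were closest to an ESC library. Among the ESC libraries, day 18 replicate 1 also had the lowest Nrl (17.7 CPM) and the highest Mki67, a gene of dividing cells (406 CPM). The counts of calls are therefore also given without it, as are the medians of many lists and the differences of many named genes that move by over 1.5 times in fold.

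Across the transcriptome, 74 of 14850 genes passed the test between late and day 18 (limma on log2(CPM + 1), Benjamini-Hochberg adjusted p under 0.05). Of these, 73 rose and 1 fell, which is 0.492% and 0.00673% of the genes tested, or 0.498% together. Fold changes below are differences on the log2(CPM + 1) scale, late minus day 18, which understates the change of genes with low levels. The risers had a median of 2.46 and a smallest value of 1.01, against a median of 0.05 over all genes. At an unadjusted p under 0.05 stood 1529 genes with higher and 651 with lower late levels. All 3 late libraries lay above all 3 day 18 libraries for 2007 genes (13.5%) and below them for 864 (5.82%).

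**Figure D1:**
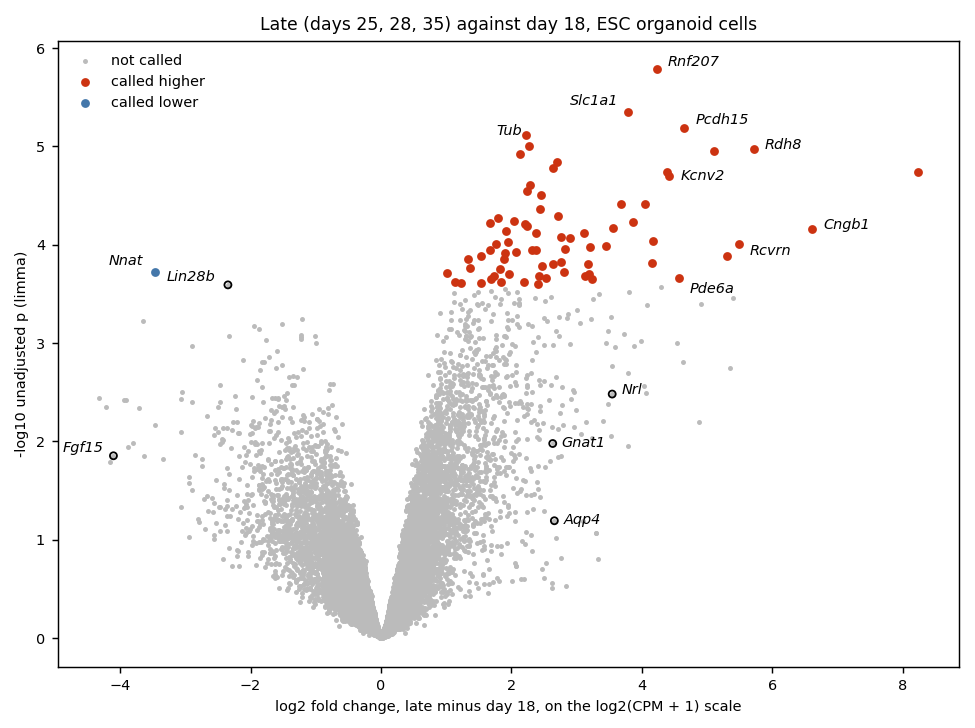
Each point is 1 of 14850 genes, with the log2 fold change between late and day 18 ESC libraries on the x axis and the -log10 of the unadjusted limma p on the y axis. Red points are the 73 genes called higher, the blue point is Nnat, called lower, and open circles mark 5 genes that were not called.

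The calls depended on which libraries entered the fit. No gene was called without the library labelled ESC day 18 replicate 1 (1469 genes at an unadjusted p under 0.05) and none without day 28 (1795 genes). The count was 16 without day 18 replicate 3, 7 without day 25, 7 without day 35, 5 without day 21 replicate 2, 102 without day 21 replicate 1 and 163 without day 21 replicate 3. Every count of called list members below is thus 0 without day 18 replicate 1 or without day 28. All 74 genes kept their direction in each of these fits, which share most of their libraries. On gene sums of estimated counts, which cover 9056 genes and 52 of the 74, edgeR's quasi-likelihood test called 0 genes (1299 at an unadjusted p under 0.05) and DESeq2 called 425, of which 323 were higher and 102 lower.

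**Figure D2:**
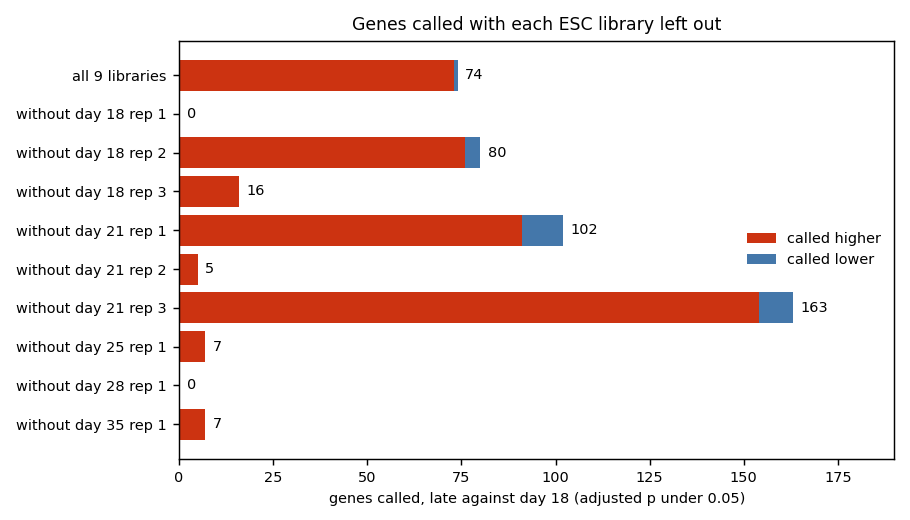
Bars give the number of genes called between late and day 18 with all 9 ESC libraries and with each library left out in turn (x axis, genes at an adjusted p under 0.05; red higher, blue lower). The count runs from 0, without day 18 replicate 1 or day 28, to 163, without day 21 replicate 3.

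Genes of the rod phototransduction cascade had the highest median of the lists examined. Of 20 listed genes 19 were tested, 3 were called higher and none lower, and their median log2 fold change was 3.14, against 0.05 for all genes. For 18 of the 19 the late libraries all lay above the day 18 libraries, against 13.5% of all genes. The median was 2.49 without day 18 replicate 1 and 3.18 without day 35. The lists were drawn up with earlier results of these data known, so these counts are a description of the members.

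Cngb1, the beta subunit of the rod cyclic nucleotide-gated channel (chr8:95239045-95306585 on GRCm38), was at 0.285, 8.40 and 0.941 CPM in day 18 replicates 1, 2 and 3. It reached 26.5, 13.3 and 239 CPM in the 3 day 21 libraries and 304, 307 and 233 CPM at days 25, 28 and 35. The 3 late libraries were close to each other and far above all of day 18, and day 21 replicate 3 was already at the late level. Cngb1 rose by 6.61 ± 0.99 (SE), adjusted p = 0.0363, and the value ran from 6.03 without day 18 replicate 1 to 7.47 without day 18 replicate 2. Its partner Cnga1, the alpha subunit of the same channel, had 0, 5.04 and 0.150 CPM at day 18 and 43.5, 56.2 and 186 CPM at days 25, 28 and 35. The late and day 18 values of Cnga1 did not overlap, but the change did not pass the test (5.36 ± 1.25 (SE), adjusted p = 0.102). It was 4.73 without day 35 and 6.19 without day 18 replicate 2.

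Pde6a, the catalytic alpha subunit of the rod phosphodiesterase, was close to absent at day 18, with 0.210, 1.18 and 0 CPM. Day 21 gave 2.08, 2.25 and 3.29 CPM, and days 25, 28 and 35 gave 8.21, 29.2 and 126 CPM. Unlike Cngb1, this gene had its highest value at day 35. Pde6a rose by 4.57 ± 0.80 (SE), adjusted p = 0.0488. The rise was 3.60 without day 35 and 5.49 without day 25. Pde6b, the catalytic beta subunit, whose promoter is printed above, was at 1.45, 274 and 27.2 CPM at day 18, 118, 166 and 854 CPM at day 21 and 958, 742 and 667 CPM late. Day 18 replicate 2 stood well above the other day 18 libraries for this gene, and the change of 4.87 ± 1.40 (SE) did not pass (adjusted p = 0.161). It was 3.15 without day 18 replicate 1 and 6.55 without day 18 replicate 2. Pde6g, the inhibitory gamma subunit, had 0.876, 15.1 and 5.27 CPM at day 18 and 129, 259.9 and 409 CPM late, again without overlap (5.39 ± 1.00 (SE), adjusted p = 0.0569), and its difference was 4.59 and 6.13 in the same 2 fits.

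Gnat1, the alpha subunit of rod transducin, followed the later of these courses. It was at 5.17, 4.29 and 1.97 CPM at day 18, at 3.15, 5.32 and 6.66 CPM at day 21 and at 11.5, 12.2 and 139 CPM at days 25, 28 and 35. Days 25 and 28 were thus only slightly above the earlier libraries, day 35 lay far above all others, and the change did not pass the test (2.63 ± 0.83 (SE), adjusted p = 0.193). Without day 35 the difference was 1.48, and without day 25 it was 3.23. Its gamma subunit partner Gngt1 was at 4.07, 24.5 and 32.3 CPM at day 18 and 199, 359 and 452 CPM late, without overlap (4.30 ± 0.77 (SE), adjusted p = 0.053, or 3.46 without day 18 replicate 1).

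Among regulators of the cascade, Rcvrn, the calcium sensor recoverin that acts on the receptor's kinase, was at 0.0621, 0 and 2.83 CPM at day 18. Day 21 gave 5.33, 7.57 and 46.4 CPM and days 25, 28 and 35 gave 35.7, 58.3 and 168 CPM, so the late libraries were all above day 18 and day 35 was the highest. Rcvrn rose by 5.49 ± 0.86 (SE), adjusted p = 0.0393, with 4.87 without day 35 and 6.12 without day 18 replicate 3. Sag, the arrestin that quenches the active receptor, had 9.30, 339.8 and 69.1 CPM at day 18, 126, 234 and 1695 CPM at day 21 and 643, 1096 and 921 CPM late. The highest value of Sag was in day 21 replicate 3, and the change did not pass (3.79 ± 1.21 (SE), adjusted p = 0.197). It was 2.49 without day 18 replicate 1 and 5.01 without day 18 replicate 2. Slc24a1, the sodium, potassium and calcium exchanger of the rod, was at 1.07, 1.09 and 5.34 CPM at day 18 and 6.78, 7.96 and 72.1 CPM late, mostly through day 35 (2.51 ± 0.88 (SE), adjusted p = 0.236, or 1.47 without that library). Gucy2f, a guanylate cyclase that remakes cyclic GMP, had 0.123, 5.27 and 0.253 CPM at day 18 and 0.0601, 1.86 and 34.7 CPM late and was the only tested member whose groups overlapped. Its difference of 1.21 turned to -0.25 without day 35. Of the 19 members, 13 had their highest late value at day 35, 3 at day 28 and 3 at day 25. How many of all genes peak in each library was not counted, here or for the lists below.

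**Figure D3:**
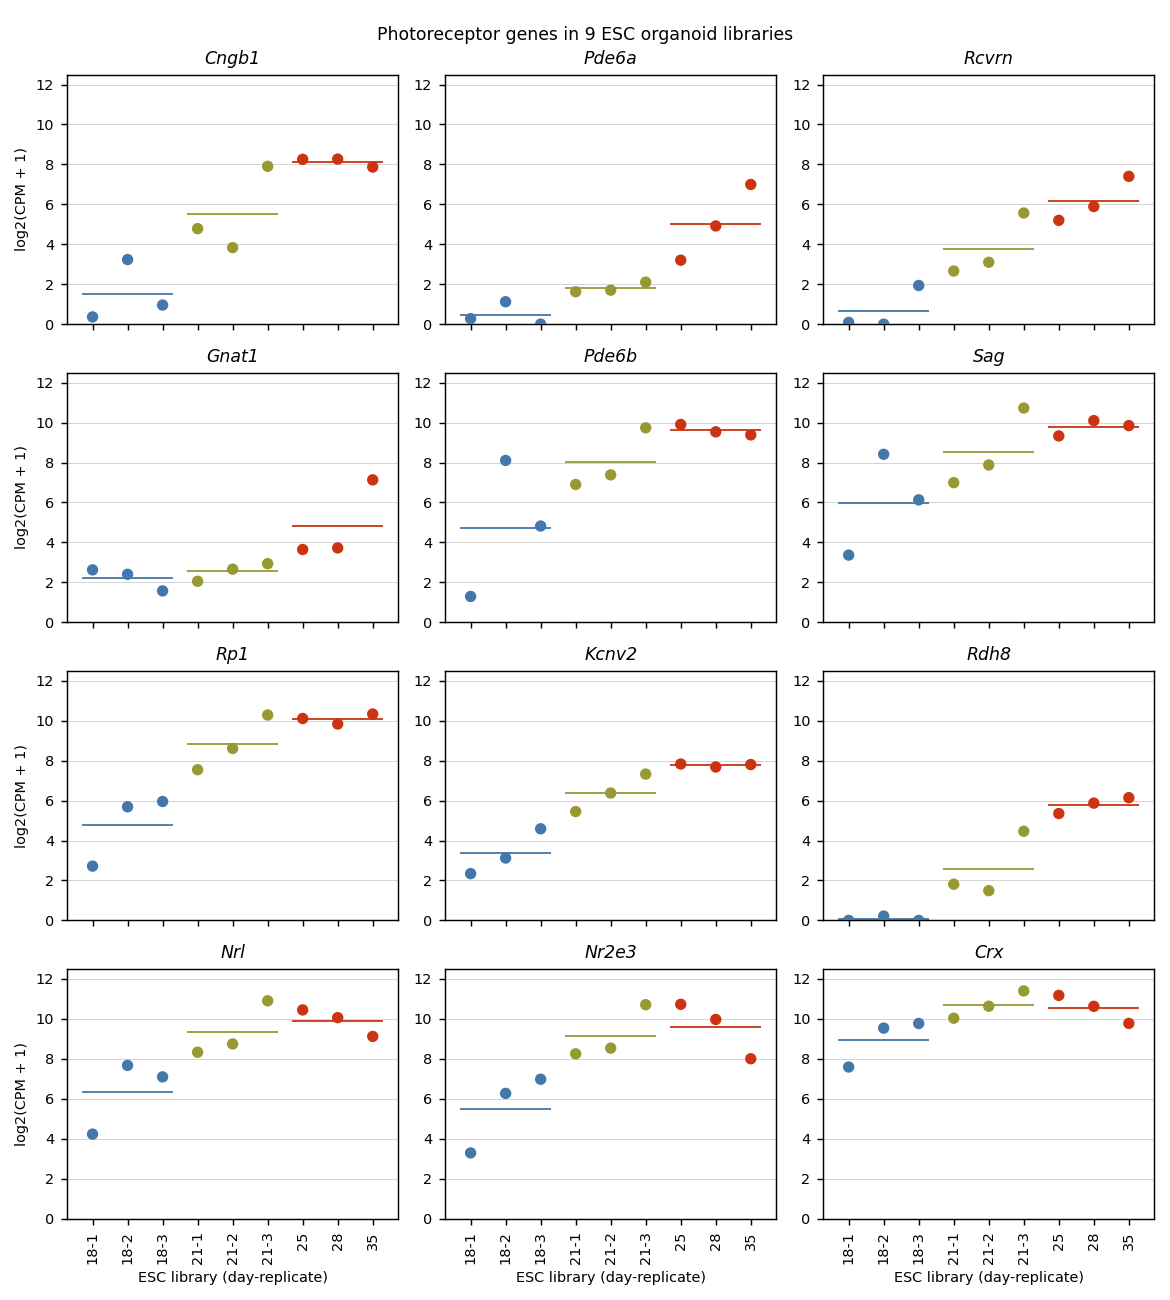
Points are the log2(CPM + 1) of 12 photoreceptor genes in each of the 9 ESC libraries (x axis, day and replicate; blue day 18, olive day 21, red late) and lines are the means of 3 libraries. The late values of Cngb1, Rp1, Kcnv2 and Rdh8 lie within 1 unit of each other, Pde6a, Rcvrn and Gnat1 are highest at day 35, and Nrl, Nr2e3 and Crx are lower at day 35 than at day 25.

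Genes of the outer segment and its cilium had the next highest median. Of 25 listed genes 23 were tested, 5 were called higher and none lower, and the median log2 fold change was 2.72. The late libraries lay above all of day 18 for 21 of the 23, against 13.5% of all genes. Over all genes tested, 0.492% were called higher and 5.82% lay below all of day 18, and these shares apply to the lists below too. The median was 2.26 without day 18 replicate 1 and 2.73 without day 35. The 5 were Rp1, Kcnv2, Wdr17, Cep290 and Tub.

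Rp1, a microtubule protein of the outer segment axoneme (chr1:3999557-4409241 on GRCm38), was at 5.58, 50.6 and 61.0 CPM at day 18, 186, 390.4 and 1248 CPM at day 21 and 1107, 914 and 1293 CPM late. The late libraries were close to each other, and day 21 replicate 3 lay among them. Rp1 rose by 5.31 ± 0.86 (SE), adjusted p = 0.0415, and by 4.27 without the library labelled day 18 replicate 1. Kcnv2, a modulatory potassium channel subunit of photoreceptors (chr19:27322588-27337179), had 4.07, 7.72 and 23.1 CPM at day 18, 42.7, 82.2 and 159.7 CPM at day 21 and 227, 205 and 223 CPM late. Its 3 late values were close to each other, and it rose by 4.42 ± 0.57 (SE), adjusted p = 0.023, with 3.92 without day 18 replicate 1 and 5.04 without day 18 replicate 3. Wdr17, a WD repeat gene expressed in the retina, was at 13.3, 8.75 and 11.0 CPM at day 18 and at 42.3, 82.8 and 131 CPM late (2.72 ± 0.39 (SE), adjusted p = 0.0363). Cep290, a protein of the ciliary transition zone, had 25.1, 48.8 and 36.8 CPM at day 18 and 179, 174 and 193 CPM late (2.32 ± 0.37 (SE), adjusted p = 0.0393). Tub, a phosphoinositide-binding protein related to the photoreceptor protein Tulp1, was at 69.2, 52.9 and 70.2 CPM at day 18 and 345, 243 and 354 CPM late (2.27 ± 0.27 (SE), adjusted p = 0.0221).

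The disc rim proteins peripherin 2 and Rom1 were not called. Prph2 was at 8.05, 145 and 109 CPM at day 18, 206, 202 and 1209.9 CPM at day 21 and 1064, 808 and 746 CPM late (4.04 ± 1.01 (SE), adjusted p = 0.12), and Rom1 was at 4.60, 41.4 and 15.9 CPM at day 18 and 592, 534 and 338 CPM late (4.90 ± 0.93 (SE), adjusted p = 0.0569). For both genes the groups did not overlap, and day 18 replicate 1 was the lowest library. Without it the differences were 2.77 for Prph2 and 4.15 for Rom1, and without day 18 replicate 2 they were 4.77 and 5.61. Outside the lists, 4 further cilium genes were among the 73 risers, and they were picked out after their values were seen: Arl6 (2.64) and Bbs5 (1.91), which belong to the Bardet-Biedl system of ciliary transport, Fam161a (2.64), a microtubule-binding protein of the connecting cilium, and Wdr60 (2.90), part of the motor for transport back down the cilium. Fam161a was at 9.37, 29.7 and 22.7 CPM at day 18 and at 119, 122 and 122 CPM at days 25, 28 and 35, so its late values were nearly equal.

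In the visual cycle, which returns the light-altered retinoid to its active form, 2 retinol dehydrogenases of the photoreceptor rose. Of 12 listed genes 11 were tested, 2 were called higher and none lower. The median was 1.29, or 0.97 without day 18 replicate 1. Of the 11, 6 had late values above all of day 18, against 13.5% of all genes. Rdh8, the retinol dehydrogenase of the outer segment (chr9:20818503-20826117 on GRCm38), was at 0, 0.162 and 0 CPM at day 18, where 0.162 CPM is about 1 estimated count. Day 21 gave 2.51, 1.81 and 21.1 CPM and days 25, 28 and 35 gave 39.9, 57.6 and 69.8 CPM. Rdh8 rose by 5.72 ± 0.69 (SE), adjusted p = 0.0221, a size set in part by the 1 added to each CPM, since it was 8.62 with 0.1 added. Rdh12, a retinol dehydrogenase of the inner segment, had 1.34, 4.78 and 4.18 CPM at day 18, 13.6, 11.3 and 76.4 CPM at day 21 and 68.1, 62.8 and 92.9 CPM late and rose by 4.18 ± 0.65 (SE), adjusted p = 0.0393. Rbp3, the retinoid carrier that photoreceptors secrete into the space around the outer segments, was at 226, 1053 and 1546 CPM at day 18, 2645, 3061 and 9008 CPM at day 21 and 7814, 4963 and 3156 CPM late. Its late values were in the order day 25, day 28, day 35, from high to low, and the change did not pass (2.79 ± 0.81 (SE), adjusted p = 0.164). Abca4, the outer segment retinoid transporter, overlapped between the groups, with 52.0, 390.2 and 180.4 CPM at day 18 and 988, 404 and 355 CPM late (1.75 ± 0.68 (SE), adjusted p = 0.276). Without day 18 replicate 1 the differences were 1.96 for Rbp3 and 0.97 for Abca4.

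The transcription factors of photoreceptors had no called member. All 19 listed genes were tested, and the median log2 fold change was 1.35, or 1.04 without day 18 replicate 1. Of the 19, 8 had late values above all of day 18, against 13.5% of all genes. Nrl, whose promoter drives the sorted reporter, was at 17.7, 203 and 136 CPM at day 18, 321, 428 and 1915 CPM at day 21 and 1396, 1067 and 556 CPM at days 25, 28 and 35 (3.54 ± 0.91 (SE), adjusted p = 0.13). Nr2e3 had 8.76, 76.0 and 125 CPM at day 18, 304, 369.8 and 1675 CPM at day 21 and 1696, 1003 and 256 CPM late (4.06 ± 1.04 (SE), adjusted p = 0.13). Both genes had late values above all of day 18, with the day 35 library the lowest of the 3 late libraries, opposite to the order of Pde6a and Rcvrn. Without day 18 replicate 1 the differences were 2.49 for Nrl and 2.95 for Nr2e3, and without day 18 replicate 2 that of Nrl was 4.22. For Nr2e3 it was 4.79 without day 18 replicate 3 and 4.84 without day 35.

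Crx was at 192, 742 and 871 CPM at day 18, 1046, 1586 and 2701 CPM at day 21 and 2312, 1582 and 874 CPM late, so that day 35 exceeded the highest day 18 library only narrowly (1.56 ± 0.64 (SE), adjusted p = 0.302, or 0.87 without day 18 replicate 1). Otx2 and Neurod1, a basic helix-loop-helix factor of young photoreceptors, overlapped between the groups. Otx2 had 322, 622 and 991 CPM at day 18 and 1511, 912 and 311 CPM late, and its difference of 0.37 turned to -0.06 without day 18 replicate 1 and to -0.13 without day 25. Neurod1 had 239, 239 and 696 CPM at day 18, 751, 1514 and 1891 CPM at day 21 and 1487, 1128 and 326 CPM late (1.26 ± 0.65 (SE), adjusted p = 0.41). Samd7, a partner of Polycomb silencing in photoreceptors, was at 46.2, 54.7 and 191 CPM at day 18 and 1061, 479.7 and 377 CPM late, without overlap (2.86 ± 0.56 (SE), adjusted p = 0.0646). Esrrb, a nuclear receptor of rods, was below 2 CPM in all libraries up to day 28 and at 21.9 CPM at day 35. Of the 19 factors 12 had their highest late value at day 25, 2 at day 28 and 5 at day 35, and their summed level was 13190 CPM at day 25, 8305 CPM at day 28 and 3993 CPM at day 35.

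Of 25 genes of the ribbon synapse, the photoreceptor's output terminal, 23 were tested and 1, Syt1, was called higher. The median was 1.95, or 1.40 without day 18 replicate 1, and 19 had late values above all of day 18, against 13.5% of all genes. Syt1, the calcium sensor of vesicle release, was at 83.9, 169 and 80.2 CPM at day 18, 304, 230.1 and 413 CPM at day 21 and 393, 399 and 544 CPM late (2.07 ± 0.33 (SE), adjusted p = 0.0396). Cacna1f, the pore of the photoreceptor calcium channel, had 1.15, 23.3 and 6.43 CPM at day 18, 14.0, 5.10 and 10.5 CPM at day 21 and 72.9, 69.7 and 169.9 CPM late (3.72 ± 0.78 (SE), adjusted p = 0.0733). Cplx4, a complexin of ribbon synapses, had 0.614, 2.05 and 1.77 CPM at day 18 and 11.0, 25.7 and 64.6 CPM late (3.53 ± 0.69 (SE), adjusted p = 0.0661). Without day 18 replicate 1 the difference of Cacna1f was 2.84. The day 21 values of Cacna1f lay within its day 18 range, whereas Syt1 had most of its difference by day 21. None was called among 12 genes listed for traffic of lipid-bearing proteins and for chaperones, a list that also holds motor proteins such as Kif17. The median was 0.43, or 0.45 without day 18 replicate 1. Of the 12, 6 lay above and 1 below all of day 18, against 13.5% and 5.82% of all genes. The 2 with the highest mean CPM were Unc119, a carrier of transducin (1.87, adjusted p = 0.225), and Arl2bp, a cofactor of Arl GTPases, at 104, 70.6 and 69.1 CPM at day 18 and 62.8, 102 and 109 CPM late. The difference of Arl2bp was 0.15, and -0.04 with CPM rescaled to a common sum. Aipl1, a chaperone of the phosphodiesterase, had 3.23, 11.5 and 44.9 CPM at day 18 and 125, 75.3 and 113 CPM late (2.94 ± 0.75 (SE), adjusted p = 0.126). Without day 18 replicate 1 the differences were 1.17 for Unc119 and 2.11 for Aipl1.

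**Figure D4:**
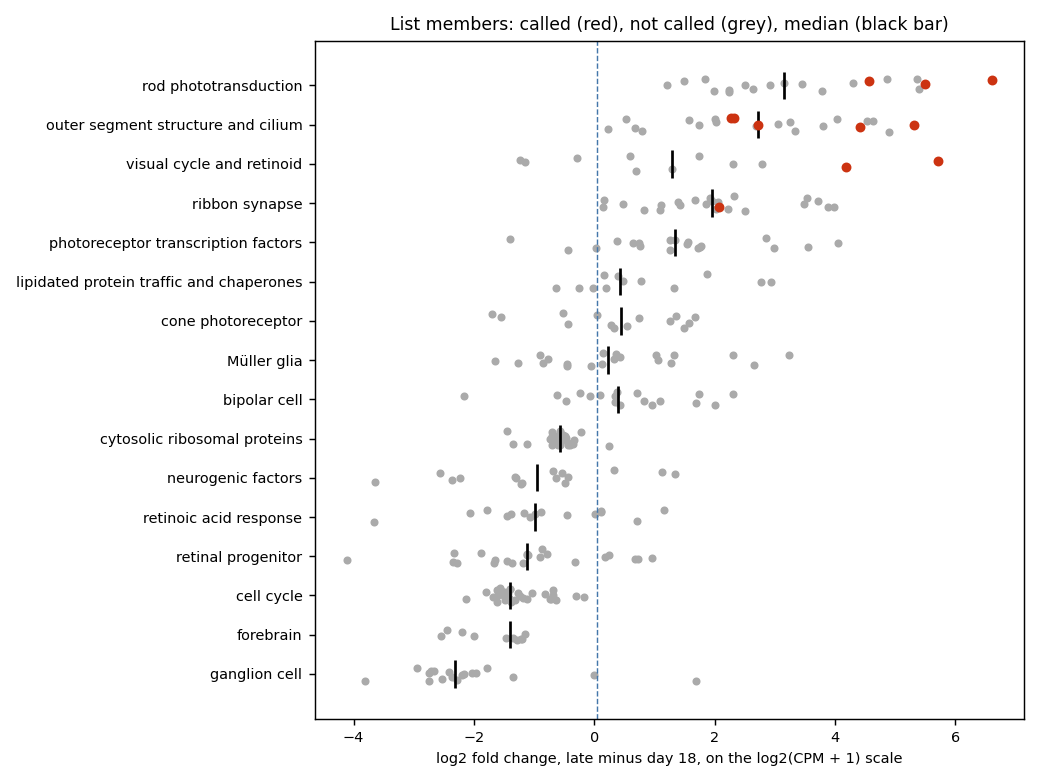
Points are the log2 fold changes between late and day 18 of the tested members of 16 gene lists (red called, grey not called), black bars the medians of the lists and the dashed line the median of all genes, 0.05. Medians run from 3.14 for rod phototransduction to -2.32 for ganglion cell genes.

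Cone genes had no called member. Of 16 listed genes 14 were tested, and the median was 0.44, or 0.07 without day 18 replicate 1. Of the 14, 1 had late values above all of day 18, against 13.5% of all genes. Opn1sw, the short-wavelength cone opsin, was at 3.36, 21.5 and 47.5 CPM at day 18, 39.0, 100.1 and 459.7 CPM at day 21 and 210.4, 92.0 and 3.09 CPM at days 25, 28 and 35. Its highest value was in day 21 replicate 3 and its day 35 value was as low as in day 18 replicate 1 (1.36 ± 1.47 (SE), adjusted p = 0.717). The difference of Opn1sw ran from 0.21 without day 25 to 3.06 without day 35, with 0.38 without day 18 replicate 1. Pde6c, the cone phosphodiesterase, was at 17.0, 49.3 and 107 CPM at day 18, 78.9, 151 and 65.4 CPM at day 21 and 44.6, 14.2 and 3.09 CPM late (-1.70 ± 0.86 (SE), adjusted p = 0.401), with -2.38 without day 18 replicate 1 and -0.81 without day 35. Arr3, cone arrestin, stayed between 0.436 and 10.3 CPM and Gnat2, the cone transducin, between 2.52 and 27.8 CPM, with differences of 0.27 and -0.51. The sign of both hung on the setting: Arr3 was at -0.06 with edgeR and -0.43 without day 18 replicate 1, and Gnat2 at 0.33 without day 18 replicate 3. Gnb3 and Gngt2, the other cone transducin subunits, had the highest mean CPM of the list, a value that is not scaled to gene length. Gnb3 was at 81.4, 542 and 552 CPM at day 18 and 1262, 1187 and 530.1 CPM late (1.67 ± 0.69 (SE), adjusted p = 0.304), and Gngt2 at 25.5, 159 and 198 CPM and 460.5, 549 and 86.0 CPM (1.57 ± 0.87 (SE), adjusted p = 0.442). Without day 18 replicate 1 these were 0.76 and 0.65. Of the 14 genes 7 had their highest late value at day 25, 6 at day 28 and 1 at day 35.

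Most risers were outside the lists, since 12 of the 73 belonged to any of them. By size, and above a mean of 5 CPM, these included Bpifb6, a lipid-binding family member, at 0, 0 and 0.254 CPM at day 18 and 91.8, 38.3 and 13.3 CPM late (5.11 ± 0.62 (SE), adjusted p = 0.0221). With 0.1 in place of 1 added its difference was 7.89, and it ran from 4.46 without day 25 to 5.81 without day 35. Pcdh15, a protocadherin of hair cells and photoreceptors, was at 4.68, 13.4 and 4.96 CPM at day 18, 35.7, 18.2 and 64.8 CPM at day 21 and 217, 296 and 119 CPM late (4.65 ± 0.53 (SE), adjusted p = 0.0221). Slc1a7, a glutamate transporter of photoreceptor and bipolar terminals, had 3.26, 8.85 and 20.3 CPM at day 18 and 279, 186 and 153 CPM late (4.38 ± 0.56 (SE), adjusted p = 0.0227), and its rise was 3.79 without day 18 replicate 1 and 4.95 without day 18 replicate 3. Rnf207, a RING finger gene, had 3.00, 5.36 and 2.71 CPM at day 18, 16.9, 17.8 and 30.9 CPM at day 21 and 151, 61.4 and 65.5 CPM late and the smallest unadjusted p of the named risers (4.24 ± 0.41 (SE), adjusted p = 0.0221). In these 4 genes, as in all 73 risers, every late library lay above every day 18 library.

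Several other risers, of which all but Ckmt1 were named after their values were seen, have known roles in photoreceptors or energy use. Nxnl1, which encodes the rod-derived cone viability factor, had 0.872, 6.22 and 2.71 CPM at day 18 and 50.5, 82.2 and 64.4 CPM late (4.15 ± 0.69 (SE), adjusted p = 0.0439). Slc1a1, a neuronal glutamate transporter, rose by 3.78 ± 0.41 (SE), adjusted p = 0.0221. Ckmt1, a mitochondrial creatine kinase and the 1 called gene among 24 of glycolysis and energy transfer (median 0.22, or 0.13 without day 18 replicate 1), had 7.39, 5.61 and 7.18 CPM at day 18 and 29.5, 39.9 and 57.1 CPM late (2.44 ± 0.35 (SE), adjusted p = 0.034).

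The risers had covered differing shares of their rise by day 21. For all 73 the mean at day 21 was above that at day 18, and the median share of the log2 difference reached at day 21 was 57.0%, from 3.3% for Psd2 to 104.4% for Cadm2. These genes were selected for low day 18 and high late values, and both differences in the share use the same day 18 mean. A day 21 mean above day 18 is thus in part set by that selection, and the shares only describe the genes. In 13 genes the share was at least 75% and in 1 it was under 25%. Psd2, an exchange factor of the Arf6 GTPase, had 35.0, 52.0 and 31.7 CPM at day 18, 39.5, 36.4 and 46.5 CPM at day 21 and 235, 152 and 144 CPM late. Cadm2, a synaptic adhesion molecule, had 34.6, 46.0 and 78.0 CPM at day 18, 165, 218 and 425 CPM at day 21 and 293, 209.8 and 204 CPM late. Psd2 thus separated the late libraries from both earlier days, while Cadm2 separated day 18 from the rest. The day 21 libraries were unequal: replicate 3 was the highest of the 3 for 62 of the 73 genes and exceeded the lowest late library for 29, replicate 2 for 8 and replicate 1 for 0. Within the late group 34 risers were highest at day 25, 12 at day 28 and 27 at day 35.

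Tested on their own, neither step held a called gene. Late against day 21 gave 0 called genes of 14850 (0%) and a smallest adjusted p of 0.163, with 740 genes at an unadjusted p under 0.05. Day 21 against day 18 gave 0 (0%) and a smallest adjusted p of 0.305, with 1882 genes at an unadjusted p under 0.05. In edgeR both counts were also 0, where 478 and 860 genes were below an unadjusted p of 0.05, and in DESeq2 they were 34 and 95. The median interval of a single gene's difference, before adjustment for the number of genes, reached 0.786 to either side on the log2 scale. Smaller steps were thus mostly not detectable. Larger ones could be missed too. The rod phototransduction list had median differences of 1.91 (day 21 minus day 18) and 1.39 (late minus day 21), without a called member.

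Only 1 gene was called lower late. Nnat, neuronatin, an imprinted gene of developing neurons (chr2:157560078-157562522 on GRCm38), was at 408, 289.6 and 515 CPM at day 18, 224, 92.8 and 40.4 CPM at day 21 and 36.8, 61.0 and 18.6 CPM at days 25, 28 and 35. Every late library lay below every day 18 library, and Nnat fell by 3.46 ± 0.59 (SE) on the log2 scale (adjusted p = 0.0485). The call was close to the threshold and was lost in 7 of the 9 fits that leave out 1 library, all but those without day 21 replicate 1 or 3. It was also lost with edgeR (adjusted p = 0.103 with TMM), without a filter, with all 16 libraries and with CPM rescaled to a common sum. The adjusted p of Nnat ran from 1.91e-05 with DESeq2 to 0.248 without day 18 replicate 1 and day 35 together. Rescaling gave Nnat a difference of -3.66, moved the median of all genes from 0.05 to -0.125 and left 46 genes called, all higher.

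Genes of progenitors and of other neurons had negative medians without a called member. Of 22 progenitor genes all were tested, with a median of -1.11, or -0.88 without day 18 replicate 1, and 5 lay below all of day 18, against 5.82% of all genes. Fgf15, a growth factor of retinal progenitors, was at 801, 28.6 and 387 CPM at day 18 and 21.5, 18.6 and 3.10 CPM late (-4.11 ± 1.37 (SE), adjusted p = 0.218, or -3.14 without day 18 replicate 1 and -5.52 without replicate 2). Lin28b, an inhibitor of let-7 microRNA processing, was at 10.3, 9.92 and 4.51 CPM at day 18 and 0.786, 0.610 and 0.786 CPM late and narrowly missed the threshold (-2.35 ± 0.42 (SE), adjusted p = 0.0506). The 2 members with the highest mean level overlapped: Notch1, the receptor that holds progenitors undifferentiated, had 364, 84.9 and 169 CPM at day 18 and 254, 344 and 98.7 CPM late, and Cdh2, N-cadherin, had 290.4, 208 and 162 CPM and 136, 187 and 194 CPM. The difference of Notch1 was 0.24, and -0.27 without day 18 replicate 2 or -0.13 without day 28.

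All 32 cell cycle genes had a negative difference, against 6824 of all 14850 genes tested. Their median was -1.40, but none was called. Of the 32, 8 lay below all of day 18, against 5.82% of all genes. Mki67, a marker of dividing cells, was at 406, 66.4 and 146 CPM at day 18, 135, 62.3 and 9.60 CPM at day 21 and 38.0, 84.2 and 35.3 CPM late (-1.69 ± 0.90 (SE), adjusted p = 0.428). Top2a, the topoisomerase of dividing cells, had 352, 53.7 and 197 CPM and 48.3, 87.0 and 47.0 CPM (-1.40 ± 0.71 (SE), adjusted p = 0.402), and Mcm3, part of the replication helicase, 99.6, 26.4 and 36.6 CPM and 6.39, 18.2 and 7.76 CPM (-2.13 ± 0.75 (SE), adjusted p = 0.236). The library labelled day 18 replicate 1 was the highest of the 9 for 31 of the 32 genes, and without it the median was -0.81, with Mki67 at -1.01 and Top2a at -0.81. Gins2, a replication factor, differed by -0.31, and by 0.19 without day 35.

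Ganglion cell genes, which mark the first-born retinal neurons, had the lowest median of the retinal lists, -2.32 over 18 tested genes, or -1.94 without day 18 replicate 1. Of these 6 lay below and 1 above all of day 18, against 5.82% and 13.5% of all genes. Pou4f1, a transcription factor of ganglion cells, was at 15.3, 2.62 and 26.4 CPM at day 18, 33.4, 2.53 and 2.34 CPM at day 21 and 0.489, 0.732 and 1.10 CPM late (-2.74 ± 0.96 (SE), adjusted p = 0.235). Elavl4, a neuronal RNA-binding protein, had 68.7, 27.1 and 41.7 CPM and 2.13, 2.87 and 21.7 CPM, with day 35 the highest late library (-2.75 ± 0.93 (SE), adjusted p = 0.221). Islr2, an axon-growth membrane protein, had 227, 191 and 681 CPM at day 18 and 344, 57.8 and 23.6 CPM late, and Stmn2, a microtubule regulator of growing axons, 116, 31.5 and 116 CPM and 1.49, 22.0 and 80.5 CPM, both with overlap. Dcx, the microtubule protein of young neurons and a member of the neurogenic list, was at 222, 126 and 84.4 CPM at day 18 and 2.83, 4.08 and 62.4 CPM late (-3.64 ± 1.22 (SE), adjusted p = 0.218). Fewer ganglion or dividing cells in the sort and less of each RNA per cell cannot be told apart in these bulk libraries.

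Among 15 tested genes of the retinoic acid response none was called, and the median was -0.98, or -0.80 without day 18 replicate 1. Of the 15, 5 lay below and 1 above all of day 18, against 5.82% and 13.5% of all genes. Cyp26a1, the retinoic acid-degrading enzyme that retinoic acid itself induces, was at 63.1, 56.7 and 25.1 CPM at day 18, 19.5, 3.42 and 1.07 CPM at day 21 and 2.78, 2.75 and 2.41 CPM late (-3.65 ± 0.73 (SE), adjusted p = 0.0661). It was at 2.78 CPM at day 25, within the period of added retinoic acid, and at 2.75 and 2.41 CPM after it. Cyp26b1, a second such enzyme, had 265, 87.1 and 196 CPM at day 18, 318, 47.1 and 277 CPM at day 21 and 361, 45.9 and 5.69 CPM late (-1.78 ± 1.26 (SE), adjusted p = 0.551). The 2 libraries taken after the medium change were the lowest of the 9, but day 28 was only narrowly below day 21 replicate 2. Age and medium cannot be told apart here. The difference of Cyp26b1 was -3.23 without day 25 and -0.35 without day 35. Aldh1a1, a retinoic acid-making enzyme, had 407, 4.92 and 159 CPM at day 18 and 61.7, 93.2 and 80.9 CPM late. Its difference was 0.11 with a standard error of 1.57. It was 1.35 without day 18 replicate 1, -1.70 without day 18 replicate 2 and -1.34 with edgeR.

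Markers of Müller glia, the retina's supporting glia, were high in the day 35 library. Aqp4, the water channel of these cells, was at 1.23, 2.26 and 1.51 CPM at day 18, 1.76, 1.13 and 0.521 CPM at day 21 and 2.16, 5.54 and 222 CPM at days 25, 28 and 35. It was at 2.26 CPM or below in every library up to day 25, and the 1 library of day 35 stood far above all others, while the groups overlapped (2.66 ± 1.27 (SE), adjusted p = 0.377). Without day 35 the difference of Aqp4 was 0.79, and without day 25 it was 3.86. Rlbp1, the retinaldehyde-binding protein of Müller glia, had 7.13, 5.14 and 5.24 CPM at day 18 and 6.39, 39.5 and 124 CPM late, and Crym, a thyroid hormone-binding protein, 8.61, 3.57 and 8.49 CPM and 11.1, 135 and 209 CPM (3.23 ± 0.99 (SE), adjusted p = 0.182). Without day 35 the differences were 1.35 for Rlbp1 and 2.44 for Crym. Of the 2 with the highest mean level, Dkk3 had 773, 61.5 and 395 CPM at day 18 and 131, 308 and 181 CPM late and was highest in day 18 replicate 1, without which its difference was 0.31 in place of -0.45, and Apoe had 47.2, 74.3 and 211 CPM and 267, 136 and 295 CPM. Of all 20 genes none was called, and the median was 0.24, or 0.18 without day 18 replicate 1. Of the 20, 1 lay above and 2 below all of day 18, against 13.5% and 5.82% of all genes. Day 35 held the highest value of the 9 libraries for 15. How many of all genes peak there was not counted, and that library had the most genes at 1 CPM or above (14511). The summed level of the 20 genes was 2623 CPM at day 35 and 690.6 and 1233 CPM at days 25 and 28. It was 664.6 to 1171 CPM at day 21 and 964.0 to 1605 CPM at day 18.

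Markers of reactive glia were also high at day 35, and so were many bipolar cell genes, though not the summed level of the bipolar list. Of 15 genes of reactive glia and injury 11 were highest there, again without a count over all genes. Their summed level was 869.5 CPM at day 35 against 110.7 to 220.2 CPM in the other 8 libraries. The median difference was 0.92 without a call, or 0.90 without day 18 replicate 1. Gfap, the filament of reactive glia, was at 8.57, 17.5 and 2.25 CPM at day 18 and 1.32, 16.4 and 436 CPM late, and its difference of 1.65 was -0.39 without day 35. Stat3, which acts upstream of Gfap, had 46.1, 71.7 and 40.6 CPM and 69.9, 54.9 and 152 CPM. Grm6, the glutamate receptor of ON bipolar cells, was at 0.188, 0.637 and 0.131 CPM at day 18 and 0.524, 1.15 and 78.8 CPM late (2.30 ± 1.22 (SE), adjusted p = 0.423), so day 35 stood far above the other 8 libraries, which reached at most 1.15 CPM. Without day 35 the difference of Grm6 was 0.48. Prkca, a kinase of rod bipolar cells, had 25.7, 27.9 and 14.2 CPM and 43.9, 61.4 and 138 CPM (1.68 ± 0.41 (SE), adjusted p = 0.11). Gnao1, the G protein of ON bipolar cells, differed by -0.07, and by 0.125 without day 18 replicate 2 and 0.19 without day 28. Of 18 bipolar genes none was called, and the median was 0.40, or 0.31 without day 18 replicate 1. Only 1 lay above all of day 18, against 13.5% of all genes. Of the 18, 10 had their highest value of the 9 libraries at day 35. The mean log2(CPM + 1) of the list was 4.80 at day 35 and 2.66 to 3.36 in the other 8 libraries. Its summed level, however, was lowest of the late libraries there, at 1201 CPM, against 1786 and 1268 CPM at days 25 and 28. This sum was 1412 to 1882 CPM at day 21 and 723.3 to 1437 CPM at day 18. Otx2, also listed among the photoreceptor factors, made up most of the sum at days 25 and 28. Glial markers and Grm6 move with day 35, the library in which Pde6a, Gnat1 and Rcvrn were highest, and their part in those values was not tested. Cngb1, Rp1 and Kcnv2 were at 304, 1107 and 227 CPM at day 25 and at 233, 1293 and 223 CPM at day 35. At day 25 Aqp4, Gfap and Grm6 were at 2.16, 1.32 and 0.524 CPM.

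**Figure D5:**
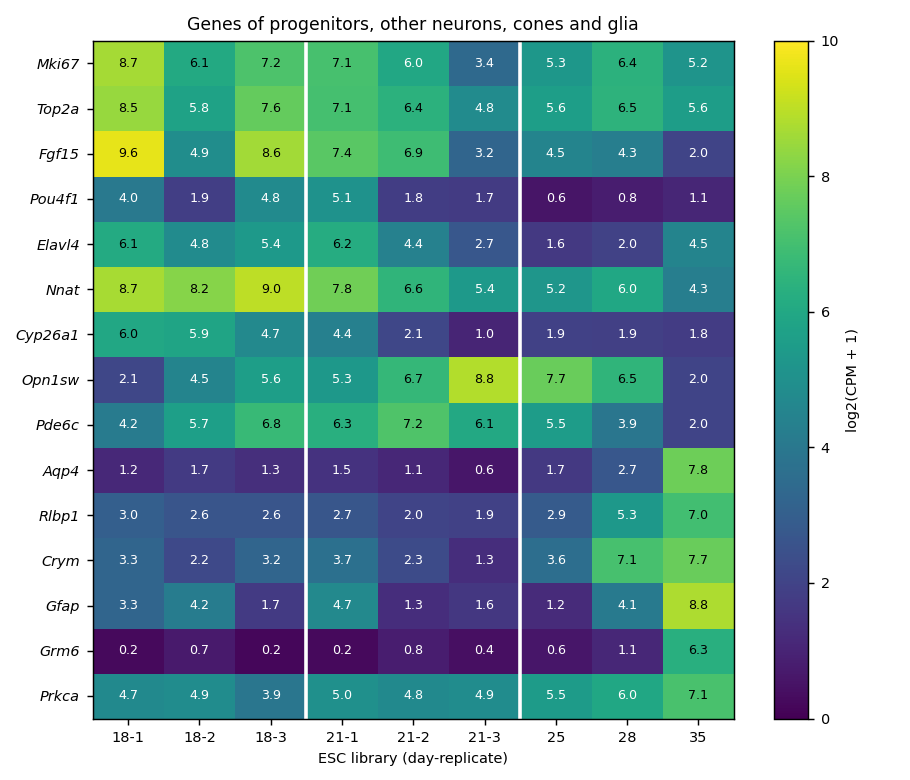
Cells give the log2(CPM + 1) of 15 genes of progenitors, other neurons, cones and glia in each of the 9 ESC libraries (x axis, day and replicate; white lines part day 18, day 21 and late). Aqp4, Gfap and Grm6 are highest at day 35, Nnat is lower in all late libraries than at day 18, and Mki67 is highest in day 18 replicate 1.

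The rise between day 18 and late was set against that in iPSC organoids, with 4 late and 2 day 18 libraries, in 1 model over all 16 libraries. Of 15202 genes tested, 0 (0%) passed the test of a difference between the sources in this change. The smallest adjusted p was 1, and 271 genes had an unadjusted p under 0.05, 250 with a larger and 21 with a smaller difference in ESC. In edgeR the count was 0 with 126 such genes, and in DESeq2 0 with 163. The library labelled ESC day 18 replicate 1, with its low Y-linked levels, enters this test, and without it the counts were 0 and 801. The iPSC day 18 group holds replicate 2, with a Y-linked sum far above replicate 1, and without that library the counts were 0 and 232. Without iPSC day 25 replicate 1 they were 0 and 530. The median interval of a single gene, before adjustment for the number of genes, reached 1.06 to either side on the log2 scale. Differences between the sources below that were thus mostly not detectable. Larger ones could be missed too: that of Crym, 3.467 ± 1.315 (SE), did not pass.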

How the data were processed

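Per the submitters' processing notes and design text, reads were trimmed (Trimmomatic 0.36) and quantified with kallisto 0.42.5 against Ensembl cDNA (GRCm38.p4), and the authors made CPM per gene with tximport and edgeR. The deposited gene table of 32166 genes holds a score: the values run from -1 to 198.2 and equal the square of log2(CPM + 1), minus 1. CPM taken back from this score was compared with the deposited TPM after a scaling factor for each library was removed. A gene's ratio was then constant within 0.001 on the log2 scale for 8489 of 8688 genes above 0 in all libraries (97.7%). The authors' transcript tables of estimated counts and of TPM end at 65535 transcripts, so gene sums of estimated counts are complete for 11076 genes only. They were rounded to whole numbers for edgeR and DESeq2.

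Genes with at least 1 CPM in at least 2 ESC libraries entered limma with trend on log2(CPM + 1), with day 18, day 21 and late as 3 groups of 3 libraries, which share 1 estimate of the spread. P-values were adjusted by Benjamini-Hochberg over all 14850 genes. The difference between sources used all 16 libraries. Software was R 4.3.3, limma 3.58.1, edgeR 4.0.16 and DESeq2 1.42.0. The fit was tested on simulated data, in which all libraries shared the same mean profile and spread apart from the late changes put in. Unequal replicates and differences between the late days were thus not covered. The members and gene lists were chosen with earlier results of these data known.

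Named genes are landmark photoreceptor and marker genes, the called genes averaging 5 CPM or more with the 12 largest increases and 12 largest decreases, up to 4 called members of a list described or else the 2 with the highest mean level, and Y-linked genes. Not all genes selected in this way are reported here. Any other gene named, list members included, was chosen after its values were seen. Alternatives were the count tests, other size factors, no filter or one of 5 CPM in 3 libraries, a pseudocount of 0.1, CPM rescaled to a common sum, array weights, other sets of libraries, a replicate block, and each library left out.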

Additional observations from a re-analysis of the deposited data

How the results depend on the processing

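For late against day 18, 73 genes were called higher and 1 lower. The counts were 0 and 0 with edgeR under either scaling, without a filter and with all 16 libraries in the fit, 323 and 102 with DESeq2, 46 and 0 with CPM rescaled to a common sum, 797 and 329 with array weights, 88 and 7 with only the 2 groups, 64 and 2 with a pseudocount of 0.1 and 79 and 1 with the stricter filter. Leaving out 1 library gave 0 to 154 higher and 0 to 11 lower, and leaving out day 18 replicate 1 and day 35 together, an alternative chosen after seeing the data, gave 0 and 0. Late against day 21 gave 34 genes with DESeq2, 1 with array weights (Psd2), 0 to 1 with a library left out (Rdh8 without day 21 replicate 3, and Tma7-ps without day 25) and otherwise 0. For the ESC and iPSC difference the leave-outs gave 0 to 1 (Tma7-ps without ESC day 25). The cause of these changes was not tested.

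Day 21 against day 18 gave 95 genes with DESeq2 and 19, all higher, with a replicate block, against 0 without the block. The labels do not say whether same-numbered libraries belong together. Such libraries had correlations of their deviations of 0.316, 0.059 and 0.251. For replicates 1 and 3 these were the highest of all pairings, whereas day 18 replicate 2 correlated best with day 21 replicate 3 (0.124). No paired analysis was possible because the late libraries all carry the number 1, so late against day 18 has no block.

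Of the log2 differences of named genes, these changed sign. With edgeR (TMM, then RLE) and DESeq2, Arr3 was at -0.064, -0.077 and -0.079 and Aldh1a1 at -1.338, -1.302 and -1.298. With rescaled CPM, Arl2bp was at -0.042, Aldh1a1 at -0.077 and Atp5b at -0.013. Array weights gave Gins2 0.053, Aldh1a1 -0.376, Kdm5d -0.004, H1f0 0.261 and Dct -0.322. Over the fits with 1 library left out, values ran from -0.248 to 2.289 for Gucy2f, -0.131 to 1.007 for Otx2, -0.433 to 1.056 for Arr3, -1.082 to 0.33 for Gnat2, -0.604 to 0.187 for Gins2 and -0.27 to 0.773 for Notch1. They ran from -1.704 to 1.349 for Aldh1a1, -1.503 to 0.312 for Dkk3, -0.389 to 3.389 for Gfap, -0.394 to 0.19 for Gnao1 and -0.143 to 0.597 for Kdm5d. Further ranges were -0.151 to 0.906 for Btg2, -0.181 to 1.09 for Hmgn2, -0.446 to 0.603 for H1f0, -2.303 to 1.409 for Ttr and -0.29 to 1.791 for Dct. Without day 18 replicate 1 and day 35, Gucy2f was at -0.688, Arr3 at -0.012, Dkk3 at 0.363, Gfap at -0.287 and H1f0 at 0.718. No gene that was called is among them. Depth limits the lowest genes, since 1 estimated count is worth up to 0.157 CPM.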

Other observations

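Protein synthesis, lipid and energy genes, which the comparisons above do not describe, had small differences without a call, apart from Ckmt1. Over all 14850 genes tested, 6824 differences were negative and 8017 positive, and these counts apply to the lists below. Of 27 cytosolic ribosomal protein genes 26 were negative, with a median late minus day 18 of -0.57. Of the 27, 2 lay below all of day 18, against 5.82% of all genes. Rpl4 was at 801, 652 and 894 CPM at day 18 and 513, 846 and 463 CPM at days 25, 28 and 35, and Rps4x at 705, 597 and 772 CPM and 391, 678 and 375 CPM. Their summed level was 4254 CPM at day 35, below the 6794 to 13864 CPM of the other 8 libraries. Of 18 cholesterol synthesis genes 16 were negative, with a median of -0.42, and Hmgcs1 had 539.6, 223 and 452 CPM at day 18 and 249, 161 and 337 CPM late. Of 25 oxidative phosphorylation genes 22 were positive, with a median of 0.18, and 22 had their highest value of the 9 libraries in day 21 replicate 3. Atp5b had 553, 569 and 676 CPM at day 18 and 673, 724 and 642 CPM late, and Atp5a1 355, 355 and 393 CPM and 508, 522 and 373 CPM.

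Neurogenic factors had a median of -0.95 over 16 genes, of which 3 lay below all of day 18, against 5.82% of all genes. Btg2, an antiproliferative gene, was at 341, 358 and 444 CPM at day 18 and 929, 542 and 214 CPM late, and Neurod4 at 167, 119.9 and 331 CPM and 770.0, 604 and 237 CPM, so both were lowest at day 35 among the late libraries. Of 17 chromatin genes 13 had their highest late value at day 25, with a median of -0.44. Hmgn2 had 513, 689 and 549.9 CPM at day 18 and 1580.3, 964 and 270.5 CPM late, and H1f0 342, 201 and 359 CPM and 497, 395 and 115 CPM. All 10 tested forebrain genes were negative, with a median of -1.41.

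Horizontal cell genes had a median of -0.26 over 11 genes and amacrine cell genes -0.11 over 12, with no call. Ndrg1 was at 79.4, 252 and 288 CPM at day 18 and 892, 553 and 380.0 CPM late, Tpm3 at 141, 88.3 and 79.9 CPM and 43.5, 48.3 and 67.1 CPM, Pax6 at 446, 176 and 234 CPM and 54.1, 171 and 192 CPM, and Slc6a9 at 32.4, 46.2 and 80.4 CPM and 169, 103 and 67.2 CPM. The pigment epithelium list had a median of 0.05 over 10 genes, all 10 with their highest late value at day 35. Ttr, a thyroid hormone carrier, was at 15.3, 1554 and 134 CPM at day 18 and 16.7, 51.7 and 2072 CPM late, so day 18 replicate 2 and day 35 were the 2 high libraries, and Dct, a pigment enzyme, had 9.26, 3.11 and 72.6 CPM and 24.2, 13.3 and 30.5 CPM.

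Other lists had no called gene and are given by their medians: mesenchyme and fibroblast -0.71 over 12 genes, stress response -0.19 over 17, immediate early genes -0.17 over 11, intrinsic apoptosis -0.02 over 15, pluripotency 0.47 over 5, microglia, macrophage and endothelium 0.12 over 4, and lens and ciliary margin -0.10 over 3. Without ESC day 18 replicate 1 the medians of 4 lists changed sign: stress response 0.07, immediate early genes 0.24, amacrine cell genes 0.02 and pigment epithelium -0.21. In the same fit the neurogenic median was -0.53, the chromatin median -0.08 and the mesenchyme median -1.10. The summed level of the immediate early genes was 2048 CPM at day 25, 1220 CPM at day 28 and 476.1 CPM at day 35. The 4 Y-linked genes had a median of 2.12, and 3 of them lay above all of day 18, where replicate 1 was low. Without that replicate the differences of Ddx3y, Eif2s3y and Uty were 1.08, 0.841 and 0.949, in place of 2.404, 2.494 and 1.829.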
